A study of Mus musculus with 4 samples.

Results

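The genes described here are *Npas3*, *Shisa6*, *Ptprz1*, *1500015A07Rik*, *Maml2*, *Tmem163*, *Phactr2*, *Frmd4b*, *Akap13* and *Erbin*, 10 of the 31053 genes counted in the series. They were picked because their counts in excitatory neurons differed between *Csf1r*+/- and wild-type (WT) brains, so the genotype values in excitatory neurons below are a description of what chose them and carry no test. Single-nucleus RNA sequencing was done on whole brains of 2-month-old female mice of strain C57/BL6. There were 2 WT libraries and 2 *Csf1r*+/- libraries, each from 1 untreated mouse, perfused before nuclei were isolated. The *Csf1r*+/- mice carried a single inactivated allele of the receptor for colony stimulating factor-1 in every cell of the body, so the lesion is not limited to microglia, the cells of the brain that normally express it. A further library per genotype was not analysed here.

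Excitatory neurons use glutamate as their transmitter and fall into many types, set apart by cortical layer, by target and by region, each with its own set of expressed genes. A mean over all of them can therefore move because a gene changed within the types or because the types were captured in other proportions. In droplet data it can also move with free RNA, transcripts from broken cells that are counted in nuclei that do not make them. The genes have varied roles. *Npas3* encodes a neuronal transcription factor of the basic helix-loop-helix PAS family, and *Maml2* a Mastermind-like coactivator of Notch-dependent transcription. *Shisa6* encodes an auxiliary subunit of AMPA-type glutamate receptors, *Ptprz1* a receptor tyrosine phosphatase that binds pleiotrophin and is abundant in oligodendrocyte precursors, and *Tmem163* a zinc transporter of vesicle and plasma membranes. *Phactr2* encodes a binding partner of protein phosphatase 1 and actin, *Frmd4b* a FERM-domain scaffold, *Akap13* an anchoring protein for protein kinase A, and *Erbin* a scaffold that binds the receptor ERBB2. *1500015A07Rik* is annotated as an antisense RNA.

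After filtering, 52132 nuclei remained, 31361 WT and 20771 *Csf1r*+/-, with library medians of 4636 to 7454 unique molecular identifiers (UMIs, each a counted molecule) per nucleus. The *Csf1r*+/- nuclei were the deeper ones, at medians of 7454 and 6656 UMIs against 5490 and 4636 in WT. Clustering gave excitatory nuclei by library as 8723 and 6869 in WT and 5218 and 7026 in *Csf1r*+/-, holding 71626465 and 47562520 UMIs in WT and 57913882 and 62815868 UMIs in *Csf1r*+/-. Levels are given as CPM, the gene's UMIs per 1000000 UMIs of the nuclei named. *Csf1r* itself was at 303 and 215 CPM in WT and at 162 and 220 CPM in *Csf1r*+/- microglial nuclei. The genotypes overlapped there, so its microglial level did not check the labels. In excitatory nuclei it was at 0.377 and 1.24 CPM (27 and 59 UMIs) in WT and was higher in both *Csf1r*+/- libraries (214 and 289 UMIs). Inhibitory nuclei held 16 and 17 UMIs of it in WT and 47 and 34 in *Csf1r*+/-. Vascular nuclei held 0 and 1 in WT and 5 and 4 in *Csf1r*+/-. In CPM too, both *Csf1r*+/- libraries lay above both WT libraries in these neuronal and vascular classes. The targeted gene thus set the labelled genotypes apart outside microglia, by a higher level in *Csf1r*+/-. The reason for the higher level was not tested.

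**Figure D1:**
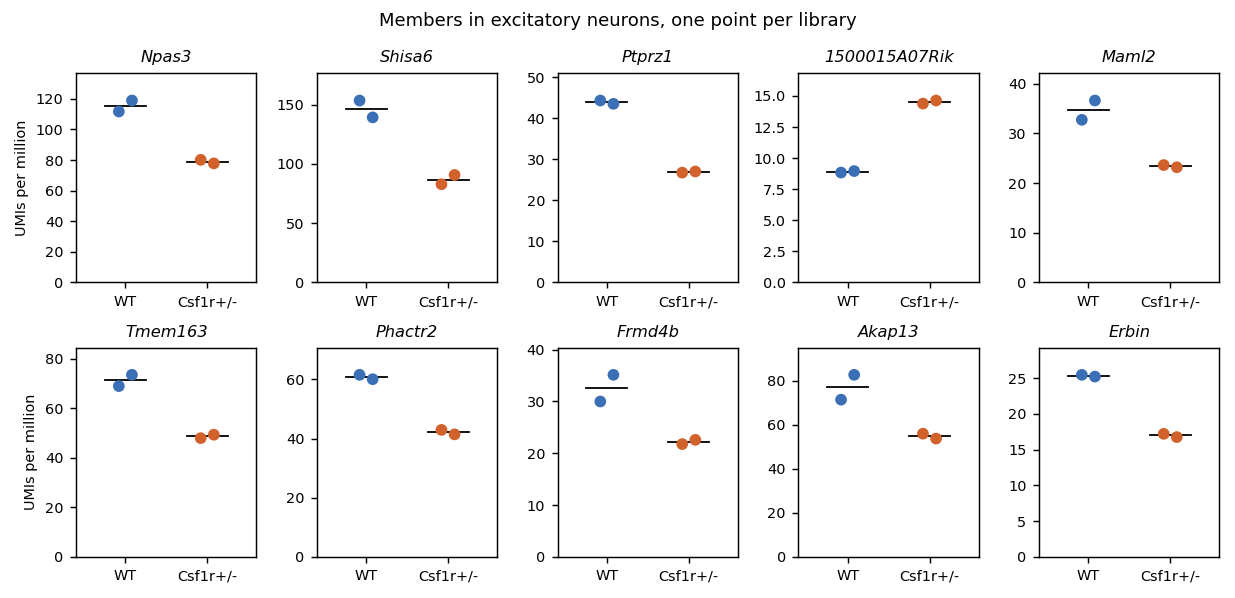
Level of each of the 10 genes in excitatory neurons, in CPM of the class on an axis from 0, with a point per library and a line at the mean of each genotype. In 9 genes both *Csf1r*+/- libraries lie below both WT libraries, and in *1500015A07Rik* both lie above, at 14.4 and 14.6 against 8.84 and 8.96.

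Over all excitatory neurons, 9 of the 10 genes were lower in both *Csf1r*+/- libraries than in either WT library and 1 was higher, as their choice fixed. Of the 7698 genes tested in this class, 17.4% had both *Csf1r*+/- libraries below both WT libraries and 5.42% had both above. None of the 7698 (0% called) reached an adjusted p of 0.05 in edgeR's quasi-likelihood test with Benjamini-Hochberg adjustment, while 131 had an unadjusted p under 0.05, the likelihood-ratio test called 1 and DESeq2 called 5. The differences were moderate. The log2 fold changes of the 9 lower genes, on edgeR's scale with trimmed-mean (TMM) factors, ran from -0.73 to -0.46, and the median over all 10 genes was -0.52. The median of the 7698 genes on that scale was -0.00054.

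Of the transcription regulators, *Npas3* was at 112 and 119 CPM in WT and at 80.2 and 77.8 CPM in *Csf1r*+/- excitatory neurons, a log2 fold change of -0.51 ± 0.08 (SE, 2 libraries per genotype). *Maml2* was at 32.7 and 36.6 CPM in WT and at 23.6 and 23.2 CPM in *Csf1r*+/- (-0.53 ± 0.11). In both genes the libraries of a genotype lay closer to each other than to those of the other genotype, as their choice favours. Of the membrane proteins, *Shisa6* had the lowest log2 fold change of the 10, from 153 and 139 CPM in WT to 82.9 and 90.7 CPM in *Csf1r*+/- (-0.73 ± 0.12). *Ptprz1* went from 44.4 and 43.6 CPM to 26.8 and 27.1 CPM (-0.68 ± 0.11). *Tmem163* went from 69.0 and 73.5 CPM to 48.0 and 49.3 CPM (-0.52 ± 0.09). The spread between libraries of a genotype was again small beside the gap, which the choice of these genes favours, so nothing is read from it.

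The scaffold and anchoring genes were lower by similar amounts. *Phactr2* was at 61.6 and 60.1 CPM in WT and at 42.9 and 41.4 CPM in *Csf1r*+/- (log2 fold change -0.50 ± 0.10), and *Erbin* at 25.5 and 25.2 CPM against 17.2 and 16.8 CPM (-0.55 ± 0.12). *Frmd4b* was at 30.003 and 35.2 CPM in WT and at 21.8 and 22.6 CPM in *Csf1r*+/- (-0.52 ± 0.12). *Akap13* was at 71.4 and 82.7 CPM against 56.0 and 53.7 CPM (-0.46 ± 0.10). In the last 2 genes the WT libraries stood further apart than the *Csf1r*+/- libraries did. The antisense RNA *1500015A07Rik* was the exception in direction, at 8.84 and 8.96 CPM in WT, against 14.4 and 14.6 CPM in *Csf1r*+/- (0.74 ± 0.13).

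In the GRCm38 (mm10) annotation of GENCODE release M21, the protein-coding genes lie on 8 chromosomes, with *Ptprz1* (chr6:22875502-23052916) and *Frmd4b* (chr6:97286867-97617541) on the same one. *Npas3* spans chr12:53248677-54072175, *Shisa6* chr11:66211725-66525964, *Maml2* chr9:13297957-13709388, *Tmem163* chr1:127486546-127679548, *Phactr2* chr10:13207717-13474412, *Akap13* chr7:75455534-75754609 and *Erbin* chr13:103818787-103920514. No gene counted in the files overlaps any of the 10 on the same strand.

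The 250 bases before the start site are printed for 3 of the genes whose genotype difference is followed through the neuron types below, to show how unlike their promoters are. They come from RefSeq (GRCm38.p6), which held promoters for 8 of the genes, 11 start sites in all, and they read 5′ to 3′ along the gene's own strand. Capitals mark the letters ACGTG, the core bound by dimers of PAS-family factors with ARNT, and GGGCGG, a GC box, on either strand. *Npas3* is taken from chr12:53248182-53248431 (plus strand), *Ptprz1* from chr6:22875252-22875501 (plus strand) and *Tmem163* from chr1:127678022-127678271 (minus strand). The start sites are those of RefSeq and can differ from GENCODE's. The *Tmem163* window lies inside the GENCODE span given above, past the start annotated there.
Npas3: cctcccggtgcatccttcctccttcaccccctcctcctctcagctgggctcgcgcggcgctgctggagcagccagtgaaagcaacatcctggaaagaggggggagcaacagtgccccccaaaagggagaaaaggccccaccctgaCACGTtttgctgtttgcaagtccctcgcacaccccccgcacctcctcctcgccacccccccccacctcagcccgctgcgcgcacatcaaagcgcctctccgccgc
Ptprz1: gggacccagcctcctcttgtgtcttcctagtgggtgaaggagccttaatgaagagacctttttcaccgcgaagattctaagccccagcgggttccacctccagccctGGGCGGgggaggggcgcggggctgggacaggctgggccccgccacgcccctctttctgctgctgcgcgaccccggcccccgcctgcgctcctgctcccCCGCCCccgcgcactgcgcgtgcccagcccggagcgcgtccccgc
Tmem163: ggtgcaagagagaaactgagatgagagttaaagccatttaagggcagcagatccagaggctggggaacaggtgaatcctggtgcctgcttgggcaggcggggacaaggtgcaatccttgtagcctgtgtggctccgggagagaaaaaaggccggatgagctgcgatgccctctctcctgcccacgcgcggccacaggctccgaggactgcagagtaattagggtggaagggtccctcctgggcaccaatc
The *Npas3* window held 1 ACGTG match, the *Ptprz1* window 2 GC boxes and the *Tmem163* window none of either. ACGTG stood in 1 of the 11 windows of these genes and in 16.6% of all 32851 promoter windows. GGGCGG stood in 4 of the 11 and in 32.7% of all windows. TGGGAA, the core bound by the Notch mediator RBPJ, stood in 1 of the 11 and in 21.6% of all windows. The G and C content of the printed windows was 66.4% in *Npas3*, 71.6% in *Ptprz1* and 58.8% in *Tmem163*, beside a median of 52.4% over all windows.

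The excitatory nuclei were divided into 15 strata, of which 6 matched a type by its markers (upper layer, layer 4, layer 5 extratelencephalic, layer 5 near-projecting and layer 6 corticothalamic cortical neurons and thalamic relay neurons) and 9 are called by their leading genes. None of the 10 genes was used for clustering. The strata were not captured in equal proportion in the genotypes. Thalamic relay neurons made up 7.63% and 5.95% of excitatory nuclei in WT and 4.25% and 5.02% in *Csf1r*+/- libraries. The stratum led by *Ndst4* and *Zfp536* made up 8.999% and 7.26% in WT and 4.64% and 3.74% in *Csf1r*+/-, and the stratum led by *Oprk1* and *Gnb4* 2.10% and 1.69% against 0.824% and 1.02%. In each of these 3 strata both *Csf1r*+/- libraries lay below both WT libraries. Upper layer cortical neurons went the other way, at 13.9% and 13.2% in WT and 16.3% and 16.2% in *Csf1r*+/-.

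**Figure D2:**
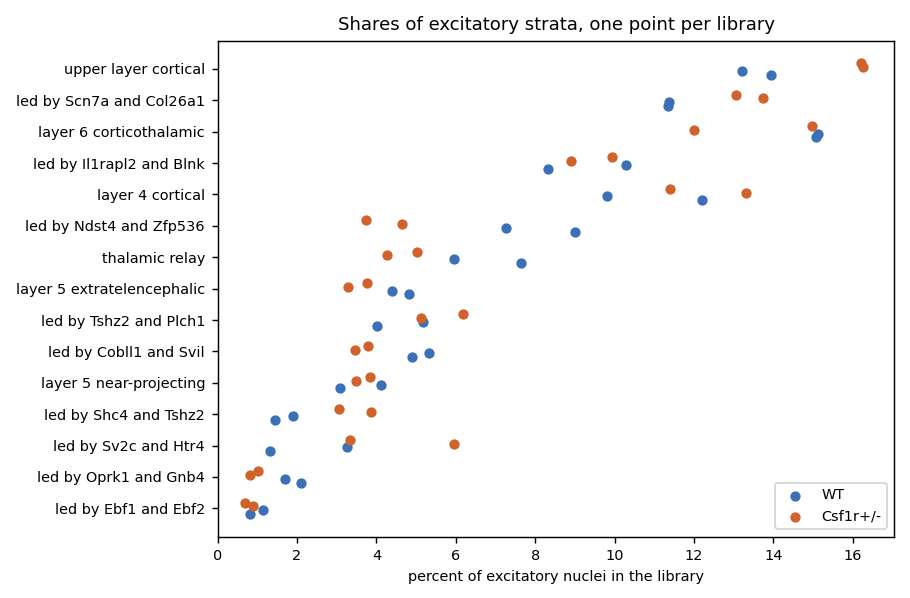
Share of excitatory nuclei in each of 15 strata, in percent of the library's excitatory nuclei, with a point per library (blue, WT; orange, *Csf1r*+/-). The thalamic relay stratum and those led by *Ndst4* and *Zfp536* and by *Oprk1* and *Gnb4* hold smaller shares in both *Csf1r*+/- libraries, and the upper layer stratum larger ones.

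Several of the genes were at or near their highest level in strata that held fewer *Csf1r*+/- nuclei. *Tmem163* reached 728 and 746 CPM in WT, against 736 and 798 CPM in *Csf1r*+/- nuclei of the *Oprk1* and *Gnb4* stratum, and 237 and 281 CPM against 286 and 247 CPM in thalamic relay neurons. The genotypes overlapped in both strata. *Ptprz1* was at 266 and 246 CPM in WT and at 236 and 224 CPM in *Csf1r*+/- thalamic relay neurons, and *Phactr2* at 278 and 209 CPM against 233 and 276 CPM there. *Npas3* was at 279 and 423 CPM in WT and at 263 and 359 CPM in *Csf1r*+/- nuclei of the *Ndst4* and *Zfp536* stratum.

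To hold the mix of strata still, each gene's level per stratum was averaged with the same weights in every library, the mean share of UMIs over the 4 libraries. On this footing the median log2 ratio of the 10 genes, *Csf1r*+/- over WT, went from -0.55 to -0.37. The reverse calculation, with a level per stratum common to all libraries and each library's own shares, gave a median of -0.18. Both ratios are of mean CPM without TMM factors. By the stratum shares alone, 9 of the 10 genes had both *Csf1r*+/- libraries below both WT libraries and 0 had both above, a count not taken over all genes. With the mix fixed, 8 of the 10 genes still had both *Csf1r*+/- libraries below both WT libraries and 1 had both above, while 13.9% of all genes tested lay below and 4.47% above on the same measure.

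*Tmem163* was the gene that the mix moved most. Its fixed-mix levels were 56.6 and 66.8 CPM in WT, against 60.5 and 56.6 CPM in *Csf1r*+/-, so the genotypes overlapped, and its log2 ratio went from -0.55 to -0.07 (13.5% of the original left). The stratum shares alone gave -0.47. *Ptprz1* and *Shisa6* kept 50.1% and 53.0% of their log2 ratios. The fixed-mix levels of *Ptprz1* were 38.3 and 41.5 CPM in WT, against 31.4 and 30.9 CPM in *Csf1r*+/- (log2 ratio -0.35), and those of *Shisa6* 130 and 136 CPM against 96.1 and 105 CPM (-0.40). *Npas3*, *Phactr2*, *Frmd4b*, *Erbin*, *Maml2* and *Akap13* kept 62.4% to 76.9%, with ratios from -0.42 to -0.34. Without WT replicate 2 the ratio of *Akap13* went from -0.38 to -0.20 and that of *Frmd4b* from -0.38 to -0.25. *1500015A07Rik* kept all of it, at 0.71 both with the mix fixed and without, and the stratum shares alone gave 0.00.

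**Figure D3:**
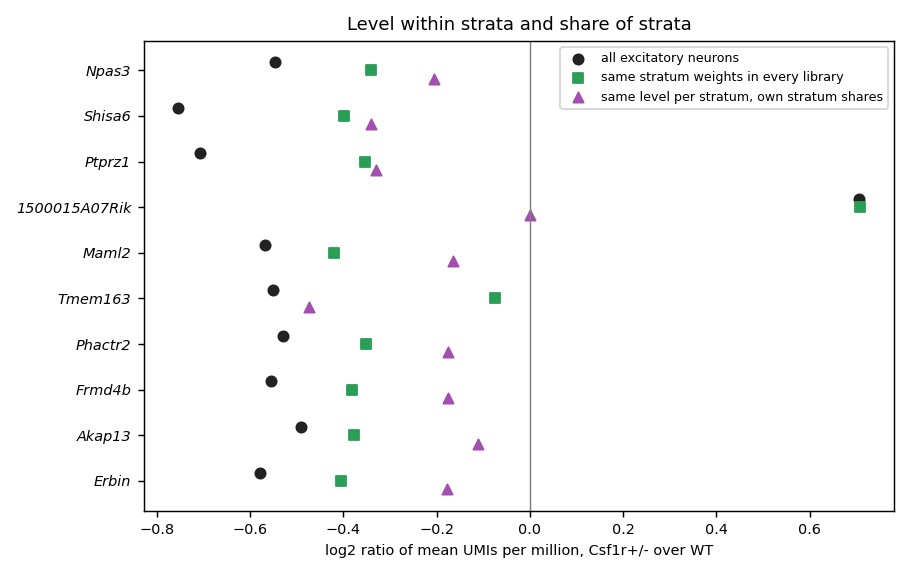
Log2 ratio of mean CPM, *Csf1r*+/- over WT, for each gene over all excitatory neurons (circles), with the same stratum weights in every library (squares) and with a common level per stratum and each library's own shares (triangles). The square of *Tmem163* lies at -0.07 while its triangle lies at -0.47, and *1500015A07Rik* shows the reverse arrangement.

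In the lower genes the genotype difference was smaller in size over the strata where the gene's level was highest, a description that was not tested. For each gene the 15 strata were divided, after the values had been seen, into the 3 of highest mean level over all libraries and the 12 others. In the 3 highest, the log2 ratios of the 10 genes had a median of -0.07, and 3 genes had both *Csf1r*+/- libraries below both WT libraries, as did 12.3% of all genes tested in their own 3 highest strata. In the 12 others the median was -0.53, and 8 genes did, as did 15.2% of all genes tested. *1500015A07Rik* differed little between the sets, with log2 ratios of 0.65 in its 3 highest strata and 0.72 in the others. Over the 135 pairs of a lower gene and a stratum, 82 (60.7%) had both *Csf1r*+/- libraries below both WT libraries and 7 (5.19%) had both above. Over all genes tested, 16.4% of such pairs lay below and 11.0% above. These genes were chosen on the sum of these same strata, so nothing is read from the excess or from the split by level.

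*Ptprz1* had the widest gap between these sets of strata. In its 3 highest strata it stood at 169 and 164 CPM in WT and at 155 and 158 CPM in *Csf1r*+/- (log2 ratio -0.09), and in the 12 others at 16.4 and 21.0 CPM against 10.9 and 9.69 CPM (-0.86). In layer 4 neurons it was at 8.79 and 12.4 CPM in WT and at 2.85 and 3.25 CPM in *Csf1r*+/-, a log2 fold change of -1.75 ± 0.29 (SE). In layer 6 corticothalamic neurons, its lowest stratum, it was at 7.58 and 9.06 CPM against 3.13 and 3.32 CPM (-1.33 ± 0.28). In thalamic relay neurons the log2 fold change was -0.16 ± 0.11. The small stratum led by *Ebf1* and *Ebf2*, where *Ptprz1* was at its highest, went against this, at 275 and 319 CPM in WT, against 263 and 148 CPM in *Csf1r*+/- (-0.56 ± 0.24), with both *Csf1r*+/- libraries lower.

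*Npas3* had a similar pattern, at 251 and 318 CPM in WT, against 278 and 280 CPM in *Csf1r*+/- over its 3 highest strata (log2 ratio -0.03), and at 79.4 and 81.6 CPM against 54.5 and 54.5 CPM over the rest (-0.56). Its lowest stratum was again layer 6 corticothalamic, at 18.7 and 27.5 CPM in WT, against 8.001 and 10.2 CPM in *Csf1r*+/- (log2 fold change -1.29 ± 0.25). In the small stratum led by *Ebf1* and *Ebf2*, with 47 to 78 nuclei per library, it was instead higher in *Csf1r*+/-, at 501 and 347 CPM against 234 and 264 CPM in WT. *Tmem163* was at 325 and 364 CPM in WT, against 369 and 351 CPM in *Csf1r*+/- over its 3 highest strata, and at 6.13 and 10.0 CPM against 3.13 and 2.33 CPM in layer 6 corticothalamic neurons (log2 fold change -1.53 ± 0.37).

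*Shisa6* differed also in strata where it was well expressed. In layer 5 extratelencephalic neurons, which project out of the cortex, it was at 373 and 271 CPM in WT and at 206 and 171 CPM in *Csf1r*+/- (log2 fold change -0.74 ± 0.19), and in layer 4 neurons at 176 and 310 CPM against 140 and 152 CPM (-0.71 ± 0.25). In the stratum led by *Tshz2* and *Plch1* it was at 73.5 and 62.1 CPM in WT, against 17.7 and 25.6 CPM in *Csf1r*+/- (-1.62 ± 0.23). In thalamic relay neurons its genotypes overlapped, at 310 and 210 CPM against 231 and 318 CPM. *Akap13* was lower across the widest set of strata of the 9 genes, with both *Csf1r*+/- libraries below both WT libraries in 12 of 15 strata and log2 fold changes from -0.78 to 0.26.

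The remaining lower genes lay between these. *Maml2* had negative log2 fold changes in all 15 strata, from -0.78 to -0.05, with the groups apart in 8. *Erbin* was negative in 13 strata, *Phactr2* in 12 and *Frmd4b* in 11, and *Frmd4b* was at 22.1 and 28.2 CPM in *Csf1r*+/- and 11.7 and 14.9 CPM in WT nuclei of the *Oprk1* and *Gnb4* stratum. In upper layer cortical neurons, the stratum with the largest fixed weight (17.2%), each of the 9 had both *Csf1r*+/- libraries below both WT libraries, as 17.7% of all genes tested did there, for example *Phactr2* at 42.6 and 56.9 CPM against 30.5 and 26.8 CPM.

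*1500015A07Rik* had a positive log2 fold change in all 15 strata and both *Csf1r*+/- libraries above both WT libraries in 12. In upper layer cortical neurons it was at 8.10 and 8.70 CPM in WT, against 15.3 and 12.4 CPM in *Csf1r*+/-, and in layer 6 corticothalamic neurons at 11.4 and 12.02 CPM against 16.3 and 18.7 CPM. Its level varied little between strata, with means over libraries from 9.08 to 14.6 CPM, where that of *Tmem163* ran from 3.78 to 752 CPM. *1500015A07Rik* (chr18:61726390-61735917, plus strand) overlaps *Afap1l1* on the opposite strand and lies on the chromosome of *Csf1r* (chr18:61100598-61132149), 594240 bases beyond its end, with 21 annotated genes between them, 8 of them protein-coding.

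**Figure D4:**
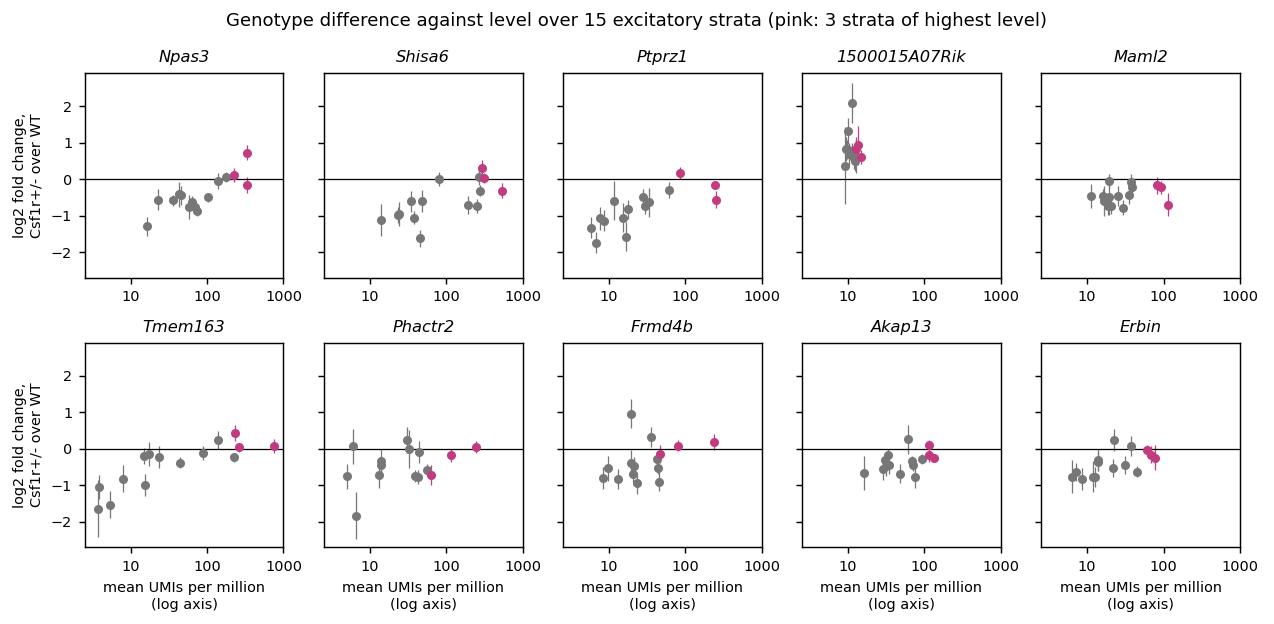
Log2 fold change (*Csf1r*+/- over WT, edgeR, bars show the SE) of each gene in each of 15 excitatory strata against its mean level there over the 4 libraries (CPM, log axis), with the 3 strata of highest level in pink. The lowest-level strata of *Npas3*, *Ptprz1* and *Tmem163* lie below 0, their high-level strata scatter on both sides of 0 (the highest of *Npas3* at 0.73 and of *Ptprz1* at -0.56), and all points of *1500015A07Rik* lie above 0.

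Whether the genotype difference was unequal between strata was tested directly over the 6 named subtypes, in a single edgeR quasi-likelihood model with library as a term, which takes up the average difference on which the genes were chosen. No gene of the 10, and none of the 7698 tested (0% called), passed an adjusted p of 0.05, although 359 of the 7698 had an unadjusted p under 0.05. *Ptprz1* came nearest of the 10, with an adjusted p of 0.242. Over all 15 strata, an extension added with these data in view, 5 of 7698 genes were called (0.065%), none of them among the 10, and *Ptprz1* had an adjusted p of 0.377. A likelihood-ratio test in the same model called *Ptprz1* and *Tmem163*, and without the detection filter *Ptprz1* had an edgeR adjusted p of 0.00411, as it did of 0.0157 without WT replicate 1. Over all alternatives the edgeR adjusted p of *Ptprz1* ran from 0.000271 to 1.

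Free RNA was estimated in each library from genes that excitatory neurons should lack, as the median ratio of 23 oligodendrocyte, microglial and endothelial markers in excitatory nuclei to their level in the library as a whole. It came to 14.2% and 20.3% in WT and 10.5% and 17.1% in *Csf1r*+/-. The level of a gene that such an amount of the library's RNA would give was then set beside the measured level. For *Ptprz1* it was 10.7 and 17.7 CPM in WT, against 6.45 and 9.78 CPM in *Csf1r*+/-, and 4 of the 15 strata had a mean level at or below the mean of these values. For *Npas3* it was 45.2 and 73.4 CPM in WT, against 28.9 and 49.8 CPM in *Csf1r*+/-, with 5 strata at or below, and for *Tmem163* 11.0 and 16.8 CPM against 6.89 and 10.8 CPM, with 4. Both genotypes' values of *Ptprz1* and *Npas3* in layer 6 corticothalamic neurons lay below these estimates. A measured level cannot lie below the free RNA it holds, so the amount estimated over the class was too high for these genes there. The counts of strata at or below it therefore do not show which strata held free RNA alone. *Maml2*, *Akap13* and *1500015A07Rik* had no stratum at or below theirs, *Shisa6* had 1 and the others had 3.

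For subtraction, free RNA was estimated anew in the same way within each stratum and library, so the amounts differ from those above. With these stratum estimates subtracted, the median log2 ratio of the 10 genes at a fixed mix went from -0.37 to -0.19. *Shisa6* was then at 123 and 134 CPM in WT, against 95.5 and 104 CPM in *Csf1r*+/- (log2 ratio -0.37), *Akap13* at 65.7 and 85.2 CPM against 58.5 and 56.7 CPM (-0.39), and *Phactr2* at 52.9 and 62.7 CPM against 44.5 and 45.3 CPM (-0.36). *Npas3*, *Ptprz1*, *Frmd4b* and *Erbin* were left at -0.18, -0.19, -0.12 and -0.19, and the genotypes of the last 2 overlapped. *Maml2* was left at -0.26 and *Tmem163* at -0.03. *1500015A07Rik* stayed at 0.72. The marker lists of other cell types moved with genotype in the same nuclei in part. The summed level of 6 inhibitory neuron markers was 19.4 and 33.9 CPM in WT, against 15.5 and 10.0 CPM in *Csf1r*+/- excitatory nuclei, with 5 of the 6 lower in both *Csf1r*+/- libraries. That of 8 oligodendrocyte precursor markers was 303 and 259 CPM against 222 and 242 CPM, with 6 of 8 lower, and that of 9 astrocyte markers 674 and 690 CPM against 633 and 670 CPM, with 6 of 9 lower. The 9 oligodendrocyte markers (48.6 and 164 CPM against 105 and 58.3 CPM) and the 8 microglial markers (44.2 and 70.0 CPM against 49.8 and 67.6 CPM) overlapped. The part of free RNA in each gene's difference was not tested.

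Depth differed between the genotypes, so the values were also taken within bins of UMIs per nucleus. In nuclei with 500 to 5000, 5000 to 10000 and 10000 to 50000 UMIs, the median log2 ratio of the 10 genes was -0.60, -0.67 and -0.62. The 9 lower genes were lower in both *Csf1r*+/- libraries in every bin except *Maml2* in the first, and *1500015A07Rik* was higher in all 3. Of all genes tested, 16.2%, 13.5% and 14.2% were lower in both *Csf1r*+/- libraries in these bins, and 12.7%, 10% and 8.11% were higher. *Frmd4b* differed little in the first bin, at 32.1 and 31.97 CPM in WT and at 29.9 and 30.02 CPM in *Csf1r*+/- (log2 ratio -0.10). In the deepest bin *Ptprz1* was at 46.1 and 43.8 CPM in WT, against 29.3 and 25.9 CPM in *Csf1r*+/-.

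Inhibitory neurons, which release GABA, came from the same 4 brains but were not used to choose the genes, so the comparison there was tested. None of the 8 genes that passed the filter of a UMI in 10% of nuclei of either genotype was called (smallest edgeR adjusted p = 0.999), nor was any of the 6651 genes tested (0% called), of which 94 had an unadjusted p under 0.05. The likelihood-ratio test and DESeq2 also called 0. The count rests on WT replicate 1, without which 133 of 6692 genes were called, 132 of them lower in *Csf1r*+/- and none among the 10. *Npas3* was at 1055 and 921 CPM in WT and at 871 and 1088 CPM in *Csf1r*+/- inhibitory neurons (log2 fold change -0.00 ± 0.15). *Ptprz1* was at 141 and 142 CPM against 125 and 142 CPM (-0.08 ± 0.10), *Shisa6* at 208 and 194 CPM against 177 and 226 CPM (0.01 ± 0.14) and *Erbin* at 105 and 102 CPM against 105 and 102 CPM (0.01 ± 0.08). The genotypes overlapped in all 4.

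*Phactr2* lay the other way in inhibitory neurons, at 54.5 and 53.1 CPM in WT, against 67.7 and 71.3 CPM in *Csf1r*+/- (log2 fold change 0.38 ± 0.10, adjusted p = 0.999 by edgeR). *Akap13* was the gene with both *Csf1r*+/- libraries below both WT libraries, at 46.4 and 47.3 CPM against 39.6 and 40.2 CPM (-0.22 ± 0.11). *1500015A07Rik*, which missed the filter, was at 8.88 and 9.31 CPM in WT, against 14.2 and 13.4 CPM in *Csf1r*+/- (0.61 ± 0.16), close to its excitatory values. In all, 1 of the 10 genes lay below and 3 above without overlap, where 13.4% and 10.3% of all genes tested in inhibitory neurons did. A p that misses the threshold with 2 libraries a genotype does not show that the levels were equal.

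**Figure D5:**
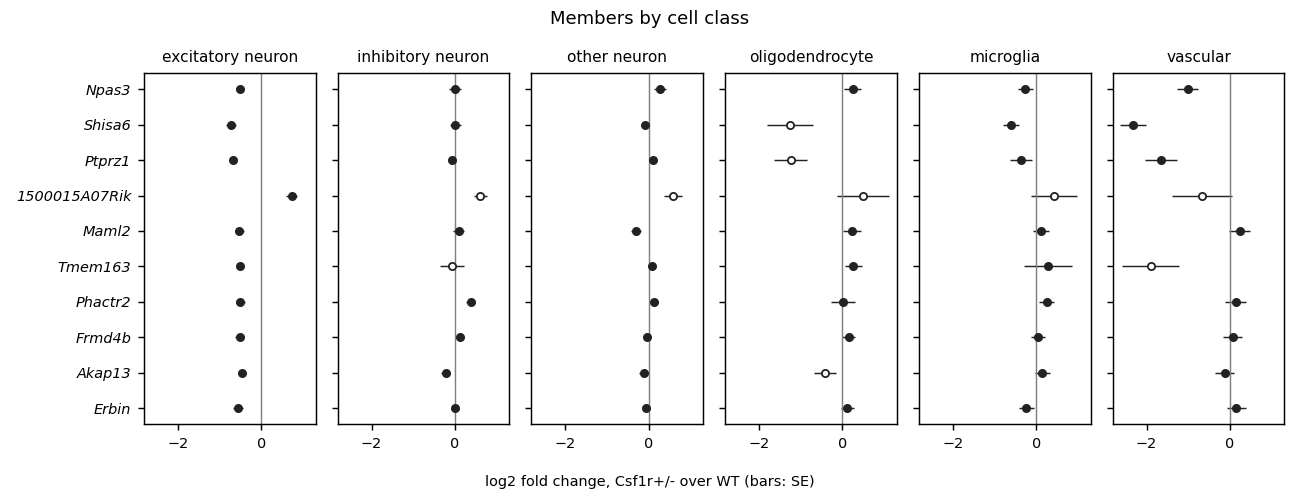
Log2 fold change (*Csf1r*+/- over WT, edgeR, bars show the SE) of the 10 genes in 6 cell classes, with open circles for genes that missed the detection filter in that class. Excitatory neurons show 9 genes below 0, whereas most genes lie near 0 in inhibitory neurons and *Shisa6*, *Ptprz1* and *Npas3* lie below 0 in vascular nuclei.

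Among glial and vascular classes, 1 gene was called. *Shisa6* fell in vascular nuclei, a class of endothelial and mural cells, from 118 and 97.3 CPM in WT (124 and 60 UMIs) to 22.5 and 23.1 CPM in *Csf1r*+/- (10 and 9 UMIs), a log2 fold change of -2.32 ± 0.31 at an edgeR quasi-likelihood adjusted p of 0.00728. In this class 13 of 5743 genes (0.226% called) passed, all lower in *Csf1r*+/-. Of the 10 genes, 4 lay below and 2 above without overlap, where 18% of genes tested in vascular nuclei lay below and 27% above. *Npas3* (198 and 238 CPM against 94.5 and 134 CPM, adjusted p = 0.184 by edgeR) and *Ptprz1* (56.3 and 43.8 CPM against 13.5 and 20.6 CPM, adjusted p = 0.151 by edgeR) did not pass. The call of *Shisa6* was lost when WT replicate 1 or *Csf1r*+/- replicate 2 was left out. With high doublet scores removed, and without WT replicate 2, *Shisa6* missed the detection filter in this class and could not be called. Its log2 fold change stayed between -2.44 and -2.12 in all these fits. Some neuronal transcripts were lower in the same nuclei. The 5 pan-neuronal markers summed to 7838 and 8382 CPM in WT, against 7206 and 5069 CPM in *Csf1r*+/- vascular nuclei (3 of 5 lower), the 6 inhibitory neuron markers to 125 and 232 CPM against 17.99 and 69.4 CPM, the 8 excitatory neuron markers, which overlapped, to 738 and 772 CPM against 999 and 489 CPM (0 of 8 lower), and the 6 endothelial markers to 5583 and 4154 CPM against 6068 and 7422 CPM. Free RNA was estimated at 59.7% and 65.1% of vascular UMIs in WT and 50.2% and 44.2% in *Csf1r*+/-, which for *Shisa6* would give 94.7 and 94.8 CPM against 49.8 and 49.2 CPM. With this estimate subtracted the call was lost, but the fitted log2 fold change was larger in size (-6.24). That value depends on the prior count, since the measured *Csf1r*+/- levels lay below the estimate. The part of neuronal RNA in the *Shisa6* difference was not tested.

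In oligodendrocytes, oligodendrocyte precursors and microglial nuclei none of the genes was called, nor any gene tested (0% called of 3485, 6033 and 6094, of which 159, 297 and 205 had an unadjusted p under 0.05). The likelihood-ratio test called 2 genes in each of these classes, and DESeq2 called 1, 0 and 0. Without WT replicate 1, 89 genes were called in oligodendrocytes and 39 in microglial nuclei, and without WT replicate 2, 6 in precursors. The smallest adjusted p of the 10 genes by edgeR was 0.977 in oligodendrocytes, 0.967 in precursors and 0.979 in microglial nuclei. *Frmd4b* and *Erbin* were high in oligodendrocytes, the myelin-forming cells, at 834 and 835 CPM in WT, against 915 and 966 CPM in *Csf1r*+/- for *Frmd4b* and at 786 and 840 CPM against 902 and 893 CPM for *Erbin*. *Ptprz1* was at its highest in the few precursor nuclei, at 1984 and 1409 CPM in WT, against 1700 and 1354 CPM in *Csf1r*+/-, where 12 to 129 nuclei per library limit precision. *Shisa6* was at 110 and 109 CPM in WT, against 64.4 and 81.2 CPM in *Csf1r*+/- microglial nuclei (log2 fold change -0.61 ± 0.19), without passing. Free RNA was estimated at 71.5% and 68.9% of microglial UMIs in WT and at 68.4% and 71.5% in *Csf1r*+/-. Over the whole libraries *Shisa6* was at 158 and 146 CPM in WT, against 99.4 and 111 CPM in *Csf1r*+/-. In oligodendrocytes the free RNA estimate was 46.9% and 38.9% against 24.2% and 30.4%. The part of free RNA in the values of these classes was not tested. The microglial class also held oligodendrocyte transcripts and many nuclei with high doublet scores. No cluster qualified as astrocytes.

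Relatives and partners of the genes were examined in excitatory neurons through 9 lists with 126 genes, of which 85 passed the detection filter. None of the 85 was called, 5 had an unadjusted p under 0.05 (5.88%, beside 1.70% of all genes tested), and 36 had negative and 49 positive log2 fold changes with a median of 0.02, beside -0.00054 over all genes. The PAS-family factors lay near 0, with 8 tested, a median of 0.04 and a range from -0.18 to 0.07. Mastermind and Notch genes (9 tested, median 0.05, -0.22 to 0.18) and the phosphatase and actin regulators (4 tested, median 0.01, -0.06 to 0.07) were as close to 0. The other FERM scaffolds and ARF6 regulators (7 tested, median 0.05) had 5 positive and 2 negative values.

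Among the AMPA receptor genes, 13 were tested, with a median of -0.01. *Gria1*, a core subunit of these receptors, had the smallest p of the list, at 806 and 821 CPM in WT, against 665 and 665 CPM in *Csf1r*+/- (log2 fold change -0.26 ± 0.10), and did not pass. Of 7 partners of PTPRZ1 tested (median -0.16), the receptor kinase gene *Alk* was at 36.7 and 42.3 CPM against 27.1 and 32.6 CPM (-0.37 ± 0.13), and did not pass. Of 13 zinc transport and metallothionein genes (median 0.01), *Mt1*, which encodes a zinc-binding metallothionein, was at 11.2 and 41.5 CPM in WT, against 6.80 and 5.57 CPM in *Csf1r*+/- (-2.03 ± 0.60). Most of that gap came from WT replicate 2, and the log2 fold change without it was -0.86. In the list of LAP scaffolds and ErbB genes (8 tested, median 0.02), the neuregulin receptor gene *Erbb4*, high in interneurons, was at 128 and 171 CPM in WT, against 92.8 and 65.7 CPM in *Csf1r*+/- excitatory nuclei (-0.88 ± 0.21). In each of these 4 genes both *Csf1r*+/- libraries lay below both WT libraries, as in 17.4% of all genes tested in excitatory neurons. Each was picked for the smallest p of its list, a choice that favours genotypes without overlap, so nothing is read from this.

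In 4 other lists, the genes with the smallest p were *Npas2* (0.07 ± 0.11), *Numb* (0.13 ± 0.10), *Ppp1cb* (-0.06 ± 0.10) and *Frmd5* (0.22 ± 0.12), given as log2 fold changes with SE. None of them passed. Both *Csf1r*+/- libraries lay above both WT libraries in *Frmd5* and below them in *Ppp1cb*, and the genotypes overlapped in *Npas2* and *Numb*.

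Across all 36 clusters of the brain, the gene whose level followed that of each member most closely differed from member to member. Likeness was measured as Pearson's r of log2(CPM + 1) over the clusters, among 7298 candidate genes with a UMI in 10% of excitatory nuclei, as a description over clusters that share libraries. *Erbin* had the closest neighbours (*Gkap1*, r = 0.867, *Kat2b*, 0.863, and *Dnajc19*, 0.863), followed by *Frmd4b* (*Ankrd13a*, 0.836, *Anapc1*, 0.834, and *Nono*, 0.806) and *Ptprz1* (*Ranbp17*, 0.816, *Gm26917*, 0.793, and *Rbms3*, 0.788). *Maml2* followed *Zbtb20* (0.808), *Supt6* (0.801) and *Dhx40* (0.767), and *1500015A07Rik* followed *Wdr34* (0.768), *Slc30a6* (0.724) and *Exosc9* (0.699). *Npas3* was nearest to *Daam1* (0.731), *Prrc2c* (0.718) and *Rspry1* (0.711), *Shisa6* to *Dnah9* (0.721), *Lrpap1* (0.631) and *Morf4l2* (0.617), and *Akap13* to *Gnb1* (0.698), *Ppfibp1* (0.674) and *Clta* (0.654). *Tmem163* was near to *Syt9* (0.692) and *Ap3d1* (0.669), and *Phactr2* to *Ssfa2* (0.651), *Zfp423* (0.605) and *Slc38a6* (0.603). None of the 10 genes was among another's 3 nearest.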

How the data were processed

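The deposited files hold UMI counts, whole numbers for every gene in every called nucleus, which the authors made with Cell Ranger 5.0.0 (file header) from 3′ Chromium libraries, on build mm10 per the labels. They were not normalized or filtered further. The study's limits on nuclei were applied (at least 500 and at most 50000 UMIs, over 200 genes, mitochondrial share under 5%), which left 52132 and removed 1858, with 88097109 to 111488169 UMIs per library. Libraries shared 33 to 68 cell barcodes per pair.

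Genes were centred within each library, and nuclei were clustered by 30 principal components of 3000 variable genes and Leiden communities (leidenalg 0.10.2, Python 3.11.15, resolution 1, 36 clusters). The 335 genes left out of this step included the 10 genes and all list genes. Doublets were scored on simulated pairs and kept in the results, with removal as an alternative. Clusters were named from marker lists. Glial, vascular and subtype names needed at least 3 markers in 10% of nuclei at 2 times the level elsewhere. A marker also had to be among the 10 leading genes, or, for subtypes, more than 3 markers had to pass. Neurons needed 3 pan-neuronal markers at 0.5 times their level over all nuclei. Excitatory clusters also needed 3 excitatory markers at or above their level elsewhere, or 3 markers of a subtype at 2 times. *Slc17a7* plus *Slc17a6* had to reach 4 times *Gad1* plus *Gad2*. Inhibitory clusters needed 3 inhibitory markers at 2 times and the reverse ratio. The clustering and these rules were settled after the clusters, and for an inhibitory name after some values, had been seen. The members, lists and markers were chosen with earlier results of these data known.

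Counts were summed per library and class or stratum and fitted with edgeR 4.0.16 (TMM, quasi-likelihood, two-sided, R 4.3.3), for genes detected in 10% of the nuclei of a genotype, with a minimum of 10 counts. Members and list genes under the first limit were fitted without an adjusted p. Calls were made at an adjusted p of 0.05 (Benjamini-Hochberg over all genes tested in the class). Genotypes were taken from the labels, and each library is a separate mouse. Tests were tested on simulated data. DESeq2 1.42.0 and the other alternatives are given in the closing section. The named genes are the 10 members, for each list the genes called or otherwise that with the smallest p, and the 3 nearest genes of each member. A nearest gene and the values of 1 list are not reported here. WT and *Csf1r*+/- replicate numbers do not pair mice.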

Additional observations from a re-analysis of the deposited data

Results flagged for a closer look

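*Phactr2* and *Frmd4b* lay in opposite directions in excitatory and inhibitory neurons, with no overlap between the genotypes in either class. The log2 fold change of *Phactr2* was -0.50 in excitatory and 0.38 in inhibitory neurons. That of *Frmd4b* was -0.52 and 0.13 ± 0.08 (SE). Neither was called in inhibitory neurons (adjusted p = 0.999 for each by edgeR's quasi-likelihood test). Of all genes tested, 17.4% had both *Csf1r*+/- libraries below both WT libraries in excitatory neurons, and 10.3% had both above in inhibitory neurons. The share of all genes that did both was not counted, so nothing is read from these 2. The difference between the classes was not tested, since the excitatory values chose the genes.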

How the results depend on the processing

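The median log2 fold change of the 10 genes in excitatory neurons (-0.52) kept its sign under every alternative run, with 9 negative and 1 positive fold changes in each. The genes were chosen on this contrast in the same libraries, so the kept sign is no support for it. With free RNA subtracted, *Npas3* (77.6 and 57.1 CPM in WT, 57.3 and 33.8 CPM in *Csf1r*+/-), *Frmd4b* and *Erbin* overlapped between genotypes, and *Erbin* went from -0.55 to -0.34. The median of the 10 genes moved by more than the spread between replicates with library totals alone (-0.55) and at Leiden resolution 0.5 (-0.55). Leaving out a replicate gave -0.53 to -0.50, and the fit with a replicate block gave -0.52. The replicate numbers do not pair the mice (correlation of same-numbered deviations -0.08), and with the replicate block *Ptprz1* joined *Shisa6* among the vascular calls (2 calls), and no other call among the 10 genes or the lists changed, while over all genes vascular calls went from 13 to 35 and precursor calls from 0 to 2. At a fixed subtype mix the median (-0.37) became -0.19 with free RNA estimated and subtracted within each stratum, and -0.45 to -0.27 without each replicate. *Tmem163* changed sign there without WT replicate 2 (range without each replicate -0.20 to 0.049).

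None of the 10 genes was called in inhibitory neurons under any alternative except *Phactr2* at an unadjusted p under 0.01 (1 call). Directions of uncalled genes there were not stable. *Npas3* became 0.0021 without the detection filter and ranged from -0.19 to 0.15 without a replicate. *Shisa6* became -0.0012 with library totals, -0.0070 without high doublet scores, -0.0034 at resolution 0.5 and -0.0010 with the replicate block, and ranged from -0.19 to 0.18 without a replicate. *Tmem163* became 0.21 without high doublet scores and 1.497 with free RNA subtracted (range -0.54 to 0.29). *Erbin* became -0.0023 with library totals (range -0.025 to 0.046). *Ptprz1* ranged from -0.18 to 0.015 and *Maml2* from -0.12 to 0.25. In glial and vascular classes the single call became 3 with the likelihood-ratio test and 3 at an unadjusted p under 0.01. It became 0 with free RNA subtracted and 0 without doublets, where *Shisa6* missed the detection filter in vascular nuclei. Leaving out a replicate gave 0 to 1. For the subtype by genotype interaction, the likelihood-ratio test gave 2 calls, no detection filter 1 and an unadjusted p under 0.01 gave 1, and leaving out a replicate 0 to 1. The interaction was fitted neither with DESeq2 nor with the replicate block, and the free RNA alternative left out precursors. DESeq2 gave 0, 1 and 0 calls in inhibitory neurons, in glial and vascular classes and in the related lists. Among related genes, *Erbb4* passed at an unadjusted p under 0.01 (1 call). Without a replicate, *Npas2* ranged from -0.032 to 0.16 and *Ppp1cb* from -0.12 to 0.028. Over all genes, the interaction calls rose from 0 to 68 with the likelihood-ratio test, 19 without the detection filter and 21 without WT replicate 2, and vascular calls from 13 to 65 with the likelihood-ratio test. Without WT replicate 1, calls became 133 in inhibitory neurons, 89 in oligodendrocytes, 44 in other neurons and 39 in microglial nuclei, all 0 before. Vascular calls became 129 without *Csf1r*+/- replicate 1, and 0 or 1 without each other replicate. Except where the alternative itself changes the threshold or removes nuclei, the cause was not tested. Each genotype has 2 libraries, and vascular and precursor classes hold few nuclei, which limits precision.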

Other observations

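Neurons of clusters that matched neither the excitatory nor the inhibitory rule gave values that belong to no comparison above. *1500015A07Rik* was at 8.98 and 10.7 CPM in WT and at 15.995 and 13.2 CPM in *Csf1r*+/- nuclei of this class. *Maml2* was at 161 and 127 CPM against 120.1 and 113 CPM, and *Npas3*, the neuronal PAS factor, at 648 and 621 CPM against 661 and 863 CPM.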
